A study of Mus musculus with 22 samples.

Results

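The 9 genes described here code for enzymes that cut the extracellular matrix or its precursors and for an inhibitor of such enzymes: Adamts1, Adamts2, Adamts4, Adamts5, Adam12, Mmp11, Ctsk, Timp3 and Plau. They were followed through H3K4me3, a histone mark of active promoters, in cultures of mouse synovial fibroblasts, stromal cells that line the joint. Every region that the authors' annotation assigned to 1 of these gene names was taken, whatever its class. There were 23 such regions among 26201 in the 4 deposited tables, and the 9 genes were among 7858 genes named there. The tables held 11, 3, 5 and 4 of the 23 regions, in the order Tg197 against wild-type (WT) cells at 3 weeks, at 8 weeks and at 11 weeks, then WT cells of 8 weeks with TNF against the same kind of cells without it.

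Tg197 is a mouse strain with a transgene for human TNF that becomes arthritic, and the design calls the 3 ages early, established and late. The groups were Tg197 cells of 3, 8 and 11 weeks, TNF-treated WT cells of 8 weeks, and untreated WT cells of all 3 ages, with 3 libraries each. All were cells of passage 4 to 5 on a mixed CBA and C57BL/6J background, so they had been grown outside the joint before the mark was measured. The dose and the duration of the TNF treatment, and the promoter that drives the transgene, are not given in the sources used here, nor whether a group's libraries stem from different animals. Columns headed treatment and control were read as Tg197 or TNF-treated and as WT, which the shared WT values of the 8 week tables bear out and which was assumed for 3 and 11 weeks. The p-values below measure the spread between these libraries, which may be technical.

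Cartilage and the joint lining are held together by fibrillar collagens and by aggrecan, a large proteoglycan. ADAMTS enzymes are secreted metalloproteinases, of which some cut aggrecan and others trim procollagens. Timp3 is an inhibitor that binds to the matrix and blocks both MMPs and ADAMTS aggrecanases. Urokinase and cathepsin K belong to other enzyme classes, the serine and the cysteine proteases. Synovial fibroblasts are a known source of matrix-degrading enzymes in arthritis.

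Promoter sequences of 5 of the 9 genes were held by the RefSeq table of the GRCm38.p6 build, each running from 250 bases before to 50 bases after the gene's start. They are shown because all 5 genes had a region within 3 kb of the transcription start site (TSS) in these data. Those regions held more of the mark at Adamts1 and Adamts2, less at Mmp11 and Ctsk, and both directions at Timp3. By distance to the TSS, the regions of Adamts1, Ctsk and Timp3 began 959 bases or more downstream, outside the printed windows. Only the Mmp11 region with TNF and the near end of the Adamts2 region reached into the windows. The sequences differ widely in CG dinucleotides, and H3K4me3 is known to mark CG-rich promoters. Any link between CG content and the changes was not tested. Capitals mark CG. The sequences run 5′ to 3′ on the strand of the gene, at chr16:85803064-85803363 on the minus strand for Adamts1, chr11:50601835-50602134 on the plus strand for Adamts2, chr10:86300162-86300461 on the plus strand for Timp3, chr10:75932453-75932752 on the minus strand for Mmp11 and chr3:95498960-95499259 on the plus strand for Ctsk.
Adamts1: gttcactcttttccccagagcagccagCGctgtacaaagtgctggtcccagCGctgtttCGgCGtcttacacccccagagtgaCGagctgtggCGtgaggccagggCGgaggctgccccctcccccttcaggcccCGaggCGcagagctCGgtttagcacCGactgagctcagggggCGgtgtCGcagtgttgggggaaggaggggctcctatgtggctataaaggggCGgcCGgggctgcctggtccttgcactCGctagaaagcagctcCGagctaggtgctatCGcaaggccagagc
Adamts2: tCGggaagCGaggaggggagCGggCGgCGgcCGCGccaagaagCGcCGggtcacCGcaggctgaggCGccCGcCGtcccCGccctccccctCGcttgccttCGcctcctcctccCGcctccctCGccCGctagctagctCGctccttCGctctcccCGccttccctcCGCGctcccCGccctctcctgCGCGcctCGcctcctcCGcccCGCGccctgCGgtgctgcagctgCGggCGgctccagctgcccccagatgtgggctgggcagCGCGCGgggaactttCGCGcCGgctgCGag
Timp3: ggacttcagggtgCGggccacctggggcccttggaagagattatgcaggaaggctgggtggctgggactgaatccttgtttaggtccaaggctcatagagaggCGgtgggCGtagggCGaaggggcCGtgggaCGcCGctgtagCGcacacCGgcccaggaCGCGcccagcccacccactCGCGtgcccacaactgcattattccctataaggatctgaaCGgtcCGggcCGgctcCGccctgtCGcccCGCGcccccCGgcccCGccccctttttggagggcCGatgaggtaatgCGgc
Mmp11: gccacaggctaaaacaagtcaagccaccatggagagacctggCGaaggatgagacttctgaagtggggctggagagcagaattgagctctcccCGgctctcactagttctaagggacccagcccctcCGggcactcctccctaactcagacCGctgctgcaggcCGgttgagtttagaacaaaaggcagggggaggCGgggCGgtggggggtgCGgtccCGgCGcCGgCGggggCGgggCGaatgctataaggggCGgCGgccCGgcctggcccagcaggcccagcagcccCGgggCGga
Ctsk: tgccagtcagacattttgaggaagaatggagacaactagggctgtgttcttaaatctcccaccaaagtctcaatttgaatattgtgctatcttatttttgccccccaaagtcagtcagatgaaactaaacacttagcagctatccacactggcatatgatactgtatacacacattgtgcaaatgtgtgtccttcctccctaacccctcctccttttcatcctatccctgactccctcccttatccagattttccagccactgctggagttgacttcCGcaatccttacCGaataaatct

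The Adamts2 window held 41 CG dinucleotides, more than 96.5% of the 32851 promoter windows in that table, where the median was 7. Timp3 had 24, Mmp11 had 19 and Adamts1 had 18. The Ctsk window held 2, and 14.1% of windows had fewer. A search on both strands for TATAAA, the core of the TATA box, found it in Adamts1 alone, 32 bases before the start, against 13.6% of all windows. GGGCGG, the core of the Sp1 site, was present 3 times in Adamts1, 5 times in Adamts2, 4 times in Mmp11, 2 times in Timp3 and 0 times in Ctsk, and 35.7% of all windows held it. TGANTCA, the AP-1 consensus, was in 7.81% of all windows and in none of these 5. The data files are on the mm9 build, and the start sites of the 2 builds were not compared.

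Values below are read counts per region as normalized by the authors, called normalized reads. The listed regions held 321448 to 2780941 reads per library, and the member regions held 29 to 1354 reads per library, which limits the precision most in the gene bodies. Every listed region had been chosen by the authors because its best window differed between the groups of that table, so a missing region says nothing about the level of the mark. Because of that choice, nearly all listed regions pass a test on the same libraries. An adjusted p under 0.05 in the authors' deposited tables was held by 99.2%, 97.4%, 96.8% and 96.9% of regions at 3, 8 and 11 weeks and with TNF. Such regions are called higher or lower. A limma fit to the libraries of each table called 93.6%, 0.0%, 97.3% and 59.1% of regions at an adjusted p under 0.05, and rose and fell are used for those alone. At an unadjusted limma p under 0.05 the share at 8 weeks was 64.2%.

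Some libraries stood apart in a way that touches the members. The number of normalized reads given to 1 read was 0.717 in WT library c of the 8 week table, against 1.46 and 1.57 in WT libraries a and b, and that library was the lowest of its group in 94.6% of the lower regions. In the TNF table the same WT library c was lowest in 89.3% of lower regions, and TNF library b in 86.9%. Tg197 library a was lowest in 84.8% of the lower regions at 8 weeks. At 3 weeks Tg197 library b was lowest in 83.4% of lower regions and Tg197 library c in 74.1% of the higher promoter regions. The part of this in the results was not tested. In each case but the last, the library had the smallest number of normalized reads per read in its group.

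Of the 23 member regions 22 were past the authors' adjusted p, 9 of them higher and 13 lower. By limma 18 passed, of which 7 rose and 11 fell. The division followed the place of the region. Within 3 kb of a TSS, called a promoter region here, 8 were higher and 5 lower, while in gene bodies 1 was higher and 8 were lower. The same division ran through all listed regions, where 39.7%, 44.4%, 46.6% and 38.9% of promoter regions were higher and 58.8%, 51.9%, 47.3% and 57.1% lower at 3, 8 and 11 weeks and with TNF. Of regions of other classes 1.21%, 3.99%, 23.6% and 3.67% were higher and 98.2%, 94.1%, 74.2% and 94.3% lower. The members' counts lie near that background, and no difference from it was tested. The 9 higher regions differed by 1.26 to 1.65-fold, and the 13 lower regions held 0.39 to 0.74 of the WT value.

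**Figure D1:**
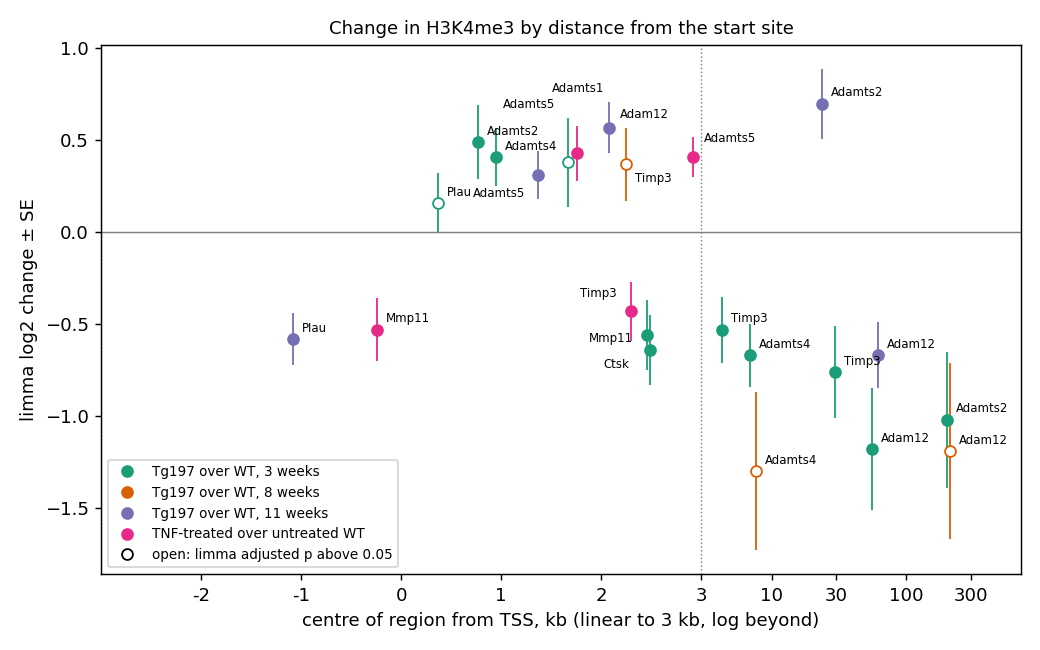
Log2 change of each of the 23 regions (limma, error bars are the SE) against the distance of its centre from the TSS in kb, linear to 3 kb and logarithmic beyond, with 1 colour for each comparison and open circles where limma's adjusted p was above 0.05. Most points above 0 lie between the TSS and 3 kb downstream, and the points beyond 3 kb lie below 0 except Adamts2 at 23.5 kb.

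At 3 weeks 3 of the 11 member regions were higher and 7 lower by the authors' adjusted p, against 9.71% and 89.5% of all regions in that table. By limma 2 rose and 7 fell, with 4.68% and 88.9% over the table, and the members' median log2 change was -0.56 against -0.70 over the table. At 8 weeks 1 was higher and 2 lower (20.2% and 77.2% over the table), 0 passed limma and 2 had an unadjusted p under 0.05, and the median was -1.19 against -0.86. At 11 weeks 3 were higher and 2 lower (29.8% and 67.0% over the table), and the same numbers rose and fell by limma (29.6% and 67.7%), with a median of 0.31 against -0.60. With TNF 2 were higher and 2 lower (24.6% and 72.3%), and 2 rose and 2 fell by limma (16.5% and 42.6%), with a median of -0.01 against -0.58. Over promoter regions alone the medians of the 4 tables were -0.54, -0.47, 0.09 and -0.41. Of the member regions 6 of 11, 1 of 3, 3 of 5 and 4 of 4 were promoter regions. The groups did not overlap in 9, 3, 4 and 4 member regions in the 4 tables, which were 20 of 23, against 92.6%, 63.2%, 95.9% and 74.2% of all regions. At 3 weeks 1 member had no listed region (Adamts1), at 8 weeks 6 had none, at 11 weeks 5 and with TNF 5.

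Adamts5, the main aggrecanase of mouse cartilage, was the member whose promoter flank was listed most often, and it was higher in all 3 tables that listed it. With TNF the region chr16:85897401-85899500, centred 2.9 kb downstream of the TSS, held 468.5, 491.8 and 500.7 normalized reads in the TNF-treated libraries and 350.1, 386.2 and 360.2 in the WT libraries. All 3 treated libraries were above all 3 WT libraries, with 487.0 ± 16.6 against 365.5 ± 18.6 (SD, n = 3 each), 1.33-fold. The mark rose by 0.41 ± 0.11 on the log2 scale (SE, limma adjusted p = 0.0460). That call was kept in 2 of the 6 fits that left out 1 library, without TNF library a and without WT library c, and the adjusted p ran up to 0.135 without TNF library b. Scaled to listed regions near a TSS (within 1 kb), the change was 0.26 with an adjusted p of 0.0543.

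At 3 weeks the Adamts5 region chr16:85899001-85900400, 1.7 kb downstream, held 630.3, 666.8 and 338.1 normalized reads in Tg197 libraries a, b and c, against 401.2, 419.1 and 382.0 in WT libraries. Tg197 library c was below all 3 WT libraries, so the groups overlapped, and limma did not call the region (545.1 ± 180.1 against 400.8 ± 18.6, log2 change 0.38 ± 0.24, adjusted p = 0.140). Without Tg197 library c the log2 change was 0.69 with an adjusted p of 0.00144. In the authors' deposited table the same region was higher with an adjusted p of 9.46e-05. It overlapped the TNF region by 500 bases.

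At 11 weeks the Adamts5 region chr16:85899501-85900500, 1.4 kb downstream, held 427.3, 309.4 and 470.5 normalized reads in Tg197 cells and 334.4, 306.1 and 316.8 in WT cells. Tg197 library b lay within the WT range and the other Tg197 libraries above it. The mean was 402.4 ± 83.4 against 319.1 ± 14.3, 1.26-fold, and the rise of 0.31 ± 0.13 had a limma adjusted p of 0.0347, which held in 1 of the 6 fits with a library left out, that without Tg197 library b. Scaled to listed regions near a TSS, the call was lost (0.13, adjusted p = 0.314). This region shared 900 bases with the one of 3 weeks. The highest enrichment over input among the members was at Adamts5, at 15.96 in Tg197 and 7.49 in WT cells at 3 weeks in the authors' deposited table.

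Adamts1, a secreted protease that cuts aggrecan and versican, lies next to Adamts5 on chromosome 16, with no protein-coding gene between them in the RefSeq table. It was listed with TNF only, where the region chr16:85800801-85802400, 1.8 kb downstream of the TSS, held 407.0, 490.0 and 349.4 normalized reads in TNF-treated libraries and 331.2, 297.9 and 289.6 in WT libraries. The groups did not overlap, and the lowest treated library lay just above the highest WT library. The mean was 415.5 ± 70.7 against 306.2 ± 22.0, 1.36-fold, and the rise of 0.43 ± 0.15 had a limma adjusted p of 0.0461. No fit with a library left out kept that call, and the adjusted p then ran from 0.0505 without TNF library a to 0.142 without TNF library b. Scaled to listed regions near a TSS (within 1 kb), the change was 0.28 with an adjusted p of 0.0964.

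Adamts4, the other classical aggrecanase, changed in opposite directions at its promoter and in its body at 3 weeks. The promoter region chr1:173181001-173182000, 0.9 kb downstream, held 232.9, 250.5 and 241.7 normalized reads in Tg197 libraries, against 194.3, 173.2 and 178.7 in WT libraries. Both groups were tight and did not overlap, with 241.7 ± 8.8 against 182.1 ± 10.9, 1.33-fold. The rise of 0.41 ± 0.16 had a limma adjusted p of 0.0283 and held in 2 of 6 fits, those without Tg197 library b or c. Without WT library a, b or c the adjusted p was 0.0640, 0.104 and 0.0791. Scaled to listed regions near a TSS, the change was 0.12 with an adjusted p of 0.596. By the p in the authors' deposited table it ranked 192 among 13603 regions, while by limma's p it ranked 12073.

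About 6.9 kb downstream, the Adamts4 region chr1:173186801-173188100 held 97.0, 94.5 and 110.0 normalized reads in Tg197 libraries and 151.2, 152.0 and 178.7 in WT libraries. All Tg197 libraries were below all WT libraries, and the mark fell by 0.67 ± 0.17 on the log2 scale (100.5 ± 8.3 against 160.6 ± 15.6, limma adjusted p = 0.0143). Without WT library c the adjusted p was 0.0646. Scaled to the listed regions the change was 0.01, so the direction in the body does not hold under that scaling.

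At 8 weeks the Adamts4 body region chr1:173187701-173188800 overlapped that one by 400 bases. It held 37.9, 66.1 and 54.7 normalized reads in Tg197 cells, against 165.2, 157.1 and 79.6 in WT cells. WT library c lay much nearer to the Tg197 libraries than to the other WT libraries, while the reads recovered from the values were 71, 49 and 69 in Tg197 libraries and 113, 100 and 111 in WT libraries. The mean was 52.9 ± 14.1 against 134.0 ± 47.2, the log2 change -1.30 ± 0.43 and the limma adjusted p 0.0725. Without WT library c the log2 change was -1.63 with an adjusted p of 0.00368.

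**Figure D2:**
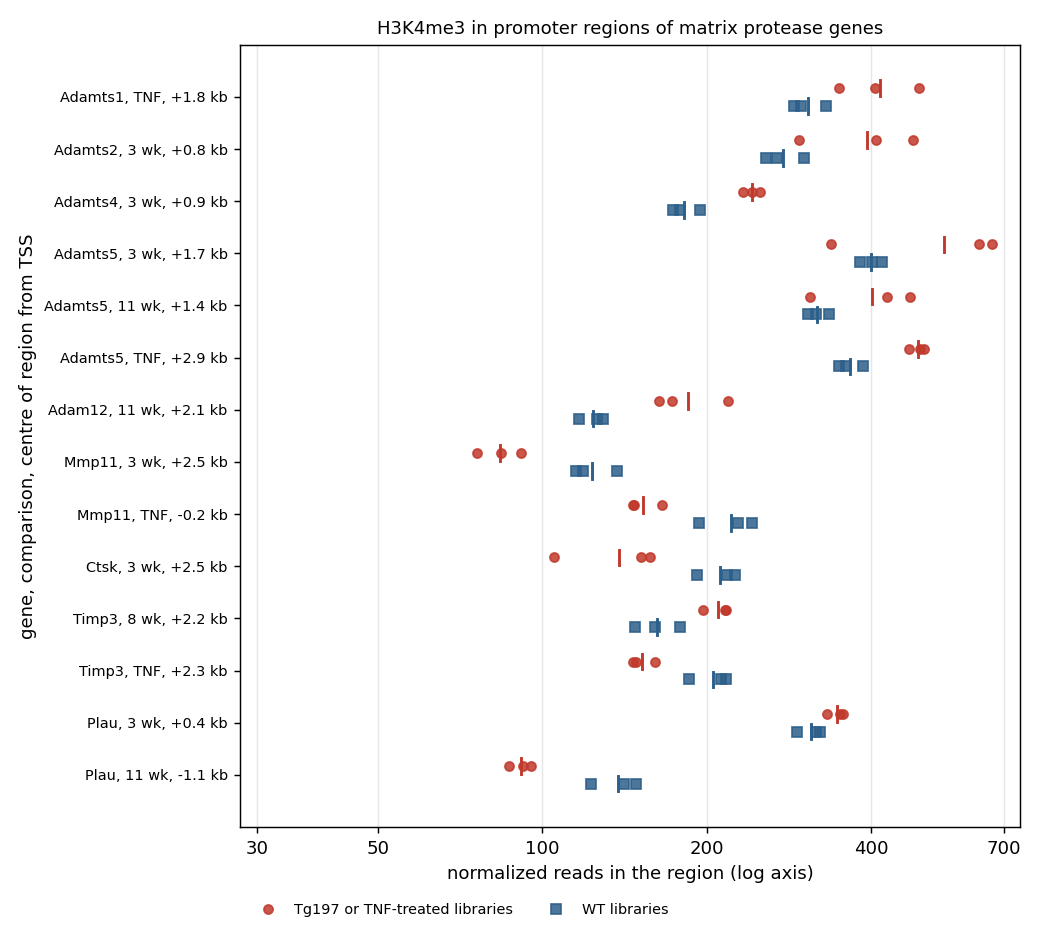
Normalized reads (log axis) in each of the 14 promoter regions, with red circles for the 3 Tg197 or TNF-treated libraries, blue squares for the 3 WT libraries and vertical bars for the means. The treated mean lies above the WT mean at every Adamts region, with a low Tg197 library at Adamts5 at 3 weeks, while Mmp11, Ctsk and the Timp3 region with TNF show all treated libraries below all WT libraries.

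Adamts2, which removes the amino-terminal propeptide of fibrillar procollagens, had 3 listed regions over its long gene. At 3 weeks the promoter region chr11:50415601-50417100, 0.8 kb downstream, held 409.3, 476.6 and 294.7 normalized reads in Tg197 libraries and 257.3, 269.4 and 301.9 in WT libraries. Tg197 library c lay between WT libraries b and c, so the groups overlapped, as they did at Adamts5 in the same table. The mean was 393.5 ± 92.0 against 276.2 ± 23.1, 1.42-fold, and the rise of 0.49 ± 0.20 had a limma adjusted p of 0.0334. It was kept in 1 of 6 fits, without Tg197 library c, where the log2 change was 0.68 with an adjusted p of 0.00181. In the other 5 fits the adjusted p ran from 0.0663 to 0.109. Scaled to listed regions near a TSS, the change was 0.20 with an adjusted p of 0.320.

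Far inside the gene, 199.1 kb downstream at chr11:50614201-50615200, Adamts2 held 62.8, 30.2 and 89.6 normalized reads in Tg197 cells at 3 weeks and 116.6, 103.9 and 118.3 in WT cells. The Tg197 libraries were spread over a wide range, and all were below the WT libraries. The mark fell by 1.02 ± 0.37 on the log2 scale (60.9 ± 29.8 against 112.9 ± 7.8, limma adjusted p = 0.0208), and the call held in 3 of 6 fits. It was lost without WT library a, b or c (adjusted p = 0.0704, 0.0553 and 0.0767). Scaled to the listed regions, the change was -0.34 with an adjusted p of 0.925.

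At 11 weeks the region chr11:50438601-50439600, 23.5 kb downstream in the Adamts2 body, held 121.0, 110.7 and 87.9 normalized reads in Tg197 cells and 61.8, 70.6 and 61.8 in WT cells. Every Tg197 library was above every WT library, and the mean of 106.5 ± 16.9 was 1.65 times the 64.7 ± 5.1 of WT cells. The rise of 0.70 ± 0.19 had a limma adjusted p of 0.00477 and held in 6 of 6 fits with a library left out. It was the only higher gene-body region among the members, and 23.6% of regions outside promoters were higher in that table. Its enrichment over input was 5.13 in Tg197 and 3.03 in WT cells in the authors' deposited table.

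Adam12, a membrane-anchored member of the ADAM family that is also made in a secreted form, carried 4 regions. Its promoter flank chr7:141414001-141415400, 2.1 kb downstream, held 218.4, 163.9 and 172.5 normalized reads in Tg197 cells at 11 weeks, against 129.1, 116.9 and 125.8 in WT cells. The groups did not overlap, with 184.9 ± 29.3 against 123.9 ± 6.4, 1.49-fold. The rise of 0.57 ± 0.14 had a limma adjusted p of 0.00443 and held in 6 of 6 fits and under each of the 4 scalings tried, with log2 changes of 0.38 to 1.01.

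In the Adam12 body the mark was lower at all 3 ages, at different places. At 11 weeks the region chr7:141354801-141356000, 61.4 kb downstream, held 80.3, 90.2 and 59.4 normalized reads in Tg197 cells and 130.3, 111.6 and 121.3 in WT cells. No library crossed to the other group, and the fall of 0.67 ± 0.18 on the log2 scale (76.6 ± 15.7 against 121.1 ± 9.3) had a limma adjusted p of 0.00503 and held in 6 of 6 fits, but scaled to the listed regions it was -0.23 with an adjusted p of 0.302. At 3 weeks the region chr7:141360501-141361500, 55.8 kb downstream and 4500 bases away from it, held 76.3, 42.3 and 39.4 in Tg197 cells and 110.3, 116.2 and 118.3 in WT cells. All Tg197 libraries were lower, and the mark fell by 1.18 ± 0.33 on the log2 scale (52.7 ± 20.5 against 114.9 ± 4.2, limma adjusted p = 0.0143), which was lost without WT library b or c (adjusted p = 0.0509 and 0.0646). Scaled to the listed regions, this change was -0.50 with an adjusted p of 0.627.

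At 8 weeks the Adam12 region chr7:141207001-141208000, 209.3 kb downstream, held 33.1, 68.8 and 51.5 normalized reads in Tg197 cells and 147.7, 136.7 and 70.3 in WT cells. As at Adamts4, WT library c was near the Tg197 libraries, just above the highest of them. The reads recovered were 62, 51 and 65 in Tg197 libraries and 101, 87 and 98 in WT libraries. The mean was 51.1 ± 17.8 against 118.2 ± 41.9, with a log2 change of -1.19 ± 0.48 that limma did not call (adjusted p = 0.0730). Without WT library c the log2 change was -1.53 and the adjusted p 0.00807.

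**Figure D3:**
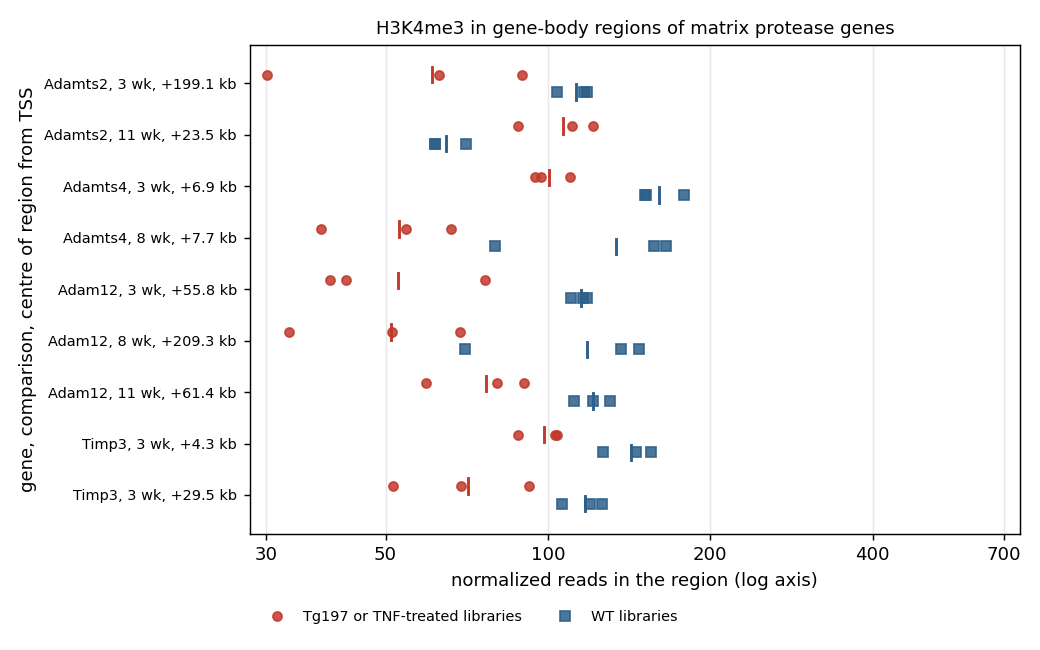
Normalized reads (log axis) in each of the 9 gene-body regions, with red circles for the 3 Tg197 libraries, blue squares for the 3 WT libraries and vertical bars for the means. Tg197 libraries lie left of all WT libraries in 8 regions and right of them at Adamts2 at 11 weeks, and 1 WT library lies near the Tg197 libraries in both regions of 8 weeks.

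Mmp11, or stromelysin-3, a metalloproteinase that furin-type enzymes activate before secretion, was lower in both tables that listed it. With TNF the region chr10:75394901-75396000 spanned the TSS, from -793 to 306 bases around it. It held 146.5, 147.5 and 165.6 normalized reads in TNF-treated libraries and 242.0, 228.0 and 193.9 in WT libraries. The groups did not overlap, and the mark fell by 0.53 ± 0.17 on the log2 scale (153.2 ± 10.8 against 221.3 ± 24.7, limma adjusted p = 0.0460). The call held in 1 of 6 fits, without WT library c, and the adjusted p in the others ran from 0.0634 to 0.135. In the authors' deposited table its enrichment over input went the other way, at 5.12 with TNF and 3.41 in WT cells.

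At 3 weeks the Mmp11 region chr10:75392201-75393300, 2.5 kb downstream and 1600 bases away from the TNF region, held 91.4, 76.0 and 84.2 normalized reads in Tg197 cells and 118.7, 115.1 and 136.8 in WT cells. All Tg197 libraries were below all WT libraries, and the mark fell by 0.56 ± 0.19 on the log2 scale (83.8 ± 7.7 against 123.5 ± 11.6, limma adjusted p = 0.0183). Without WT library a, b or c the adjusted p was 0.0554, 0.0507 and 0.0757. The change was 0.12 with scaling to the listed regions. The enrichments in the authors' deposited table were close, at 2.01 in Tg197 and 2.06 in WT cells.

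Ctsk, which codes for cathepsin K, the collagen-cutting cysteine protease known best from osteoclasts, was listed at 3 weeks only. The region chr3:95304901-95306500, 2.5 kb downstream, held 151.8, 104.9 and 157.5 normalized reads in Tg197 cells and 192.2, 217.9 and 225.5 in WT cells. No library crossed to the other group. The mark fell by 0.64 ± 0.19 on the log2 scale (138.1 ± 28.8 against 211.9 ± 17.5, limma adjusted p = 0.0148), which was lost without WT library c (adjusted p = 0.0646) and was 0.04 when scaled to the listed regions. None of the 6 osteoclast markers, Acp5, Calcr, Dcstamp, Ocstamp, Oscar and Itgb3, had a listed region in any table. Since only regions that differed were listed, this does not tell whether such cells were present. Ctsk lies next to Ctss, the gene of cathepsin S, in the RefSeq table.

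Plau, which codes for urokinase, the activator of plasminogen, was listed over its TSS at 3 weeks and upstream of it at 11 weeks. At 3 weeks the region chr14:21655601-21656900 over the TSS, from -282 to 1017 bases, held 350.5, 356.0 and 332.7 normalized reads in Tg197 cells and 322.4, 292.8 and 316.7 in WT cells. The groups did not overlap, but the difference of 1.12-fold (346.4 ± 12.2 against 310.6 ± 15.7) passed neither test, with a log2 change of 0.16 ± 0.16 and a limma adjusted p of 0.349. In the authors' deposited table its adjusted p was 1 for the whole region and 1.15e-08 for its best window, so it was listed for that window. It was the 1 member region of 23 outside the authors' adjusted p.

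At 11 weeks the Plau region chr14:21654301-21655300, centred at -1.1 kb from the TSS, ended 300 bases before the place of the 3 week region. It held 95.3, 92.2 and 87.1 normalized reads in Tg197 cells, against 141.3, 123.0 and 148.3 in WT cells. The Tg197 libraries were close together and all lower, and the mark fell by 0.58 ± 0.14 on the log2 scale (91.5 ± 4.2 against 137.5 ± 13.1, limma adjusted p = 0.00448). The call held in 6 of 6 fits. With scaling to the listed regions the change was -0.13 with an adjusted p of 0.429.

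Timp3, the inhibitor in the set, had 4 regions, and its promoter flank was listed in both tables of 8 weeks with opposite directions. In Tg197 cells of 8 weeks the region chr10:85764901-85765900, 2.2 kb downstream, held 196.6, 217.1 and 216.2 normalized reads, against 160.8, 147.7 and 178.6 in WT cells. All Tg197 libraries were above all WT libraries (210.0 ± 11.6 against 162.4 ± 15.5, 1.29-fold), while the log2 change of 0.37 ± 0.20 was not called by limma (adjusted p = 0.107). In the authors' deposited table it was higher with an adjusted p of 9.52e-08, rank 37 among 2923 regions, where limma's p gave rank 2464.

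With TNF the Timp3 region chr10:85764901-85766000 shared 1000 bases with that one. It held 161.0, 146.4 and 148.6 normalized reads in TNF-treated libraries and 212.8, 185.7 and 216.6 in WT libraries. All treated libraries were lower, and the mark fell by 0.43 ± 0.16 on the log2 scale (152.0 ± 7.9 against 205.0 ± 16.8, limma adjusted p = 0.0495). The call held in 1 of 6 fits, without WT library c, and reached 0.140 without TNF library b. Both tables set their cells against the same 3 WT libraries but were normalized separately, and the difference between the Tg197 and the TNF value was not tested. Enrichment over input in the authors' deposited tables was higher than in WT cells in both, at 6.19 in Tg197 and 3.40 in WT cells, and at 5.46 with TNF and 3.69 in WT cells.

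In the body of Timp3 the mark fell at 3 weeks. The region chr10:85766901-85768000, 4.3 kb downstream, held 104.1, 88.1 and 103.2 normalized reads in Tg197 cells and 155.4, 126.3 and 145.4 in WT cells. The groups did not overlap (98.5 ± 9.0 against 142.4 ± 14.8, log2 change -0.53 ± 0.18, limma adjusted p = 0.0176), and without WT library a or c the adjusted p was 0.0814 and 0.0653. The region chr10:85792201-85793200, 29.5 kb downstream, held 69.2, 51.6 and 92.3 in Tg197 cells and 126.0, 106.2 and 119.5 in WT cells. All Tg197 libraries were lower again, with a fall of 0.76 ± 0.25 on the log2 scale (71.0 ± 20.4 against 117.2 ± 10.1, limma adjusted p = 0.0172), lost without WT library a or c (adjusted p = 0.0688 and 0.0651). Scaled to the listed regions, the change was 0.15 at 4.3 kb and -0.07 at 29.5 kb (adjusted p = 0.948 and 0.962). In the RefSeq table Timp3 overlaps Syn3, a synapsin gene, so the mark cannot be given to either.

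Levels were compared between members only within a table and per kb of region. At 3 weeks Adamts5 carried the most, at 389.3 normalized reads per kb in Tg197 and 286.2 in WT cells. Plau followed with 266.5 in Tg197 and 238.9 in WT cells, Adamts2 with 262.3 and 184.1 and the Adamts4 promoter with 241.7 and 182.1. Plau and Adamts2 differed in Tg197 cells by less than the spread between the Adamts2 libraries. The other 7 regions of that table held 52.7 to 89.5 per kb in Tg197 cells and 112.3 to 132.4 in WT cells, so in WT cells they lay close together. With TNF the order was Adamts1 (259.7 in treated and 191.4 in WT cells), Adamts5 (231.9 and 174.0), Mmp11 (139.3 and 201.2) and Timp3 (138.2 and 186.4), and in WT cells Mmp11 was the highest of the 4.

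Enrichment over input, the authors' own ratio, ran higher at the higher regions, with overlap. It was 3.45 to 15.96 at the higher and 1.24 to 5.46 at the lower regions in Tg197 or TNF-treated cells, and 2.19 to 8.93 and 1.80 to 3.94 in WT cells. The 9 higher regions had a median enrichment of 6.44 in Tg197 or TNF-treated cells and 3.03 in WT cells. Because enrichment ratios exceeded count ratios at nearly all listed regions, a region with more normalized reads also had the higher enrichment. The 13 lower regions had a median of 2.01 in Tg197 or TNF-treated cells and 2.38 in WT cells, and 2 of them, Mmp11 and Timp3 with TNF, had the higher enrichment in treated cells. In the TNF table, among all regions, 53.0% of those with fewer normalized reads had the higher enrichment, against 3.4%, 10.8% and 0.2% at 3, 8 and 11 weeks. The median gap between the log2 ratio of enrichments and that of counts was 1.04 with TNF and 0.48, 0.61 and 0.07 at the 3 ages. The direction at Mmp11 and Timp3 with TNF thus depends on which of the authors' 2 measures is read.

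**Figure D4:**
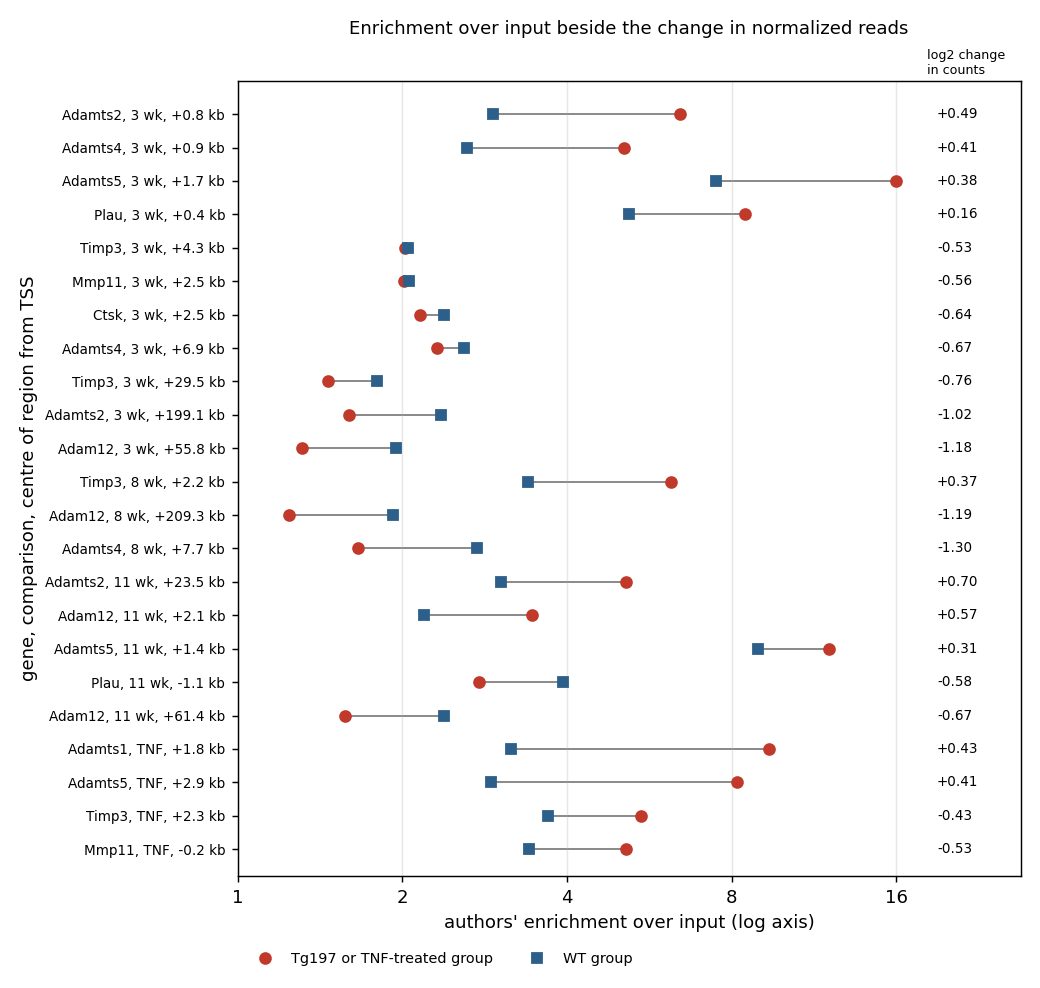
The authors' enrichment over input (log axis) in each of the 23 regions, with red circles for the Tg197 or TNF-treated group, blue squares for the WT group and the limma log2 change in normalized reads at the right. The circle lies right of the square at each region with a positive change, and also at Timp3 and Mmp11 with TNF, where the change in reads is negative (-0.43 and -0.53).

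The scale of the counts also turned some directions. The authors' scaling gave a median log2 change over the listed regions of -0.70, -0.86, -0.60 and -0.58 in the 4 tables. Scaling each library to the listed regions gave -0.02, -0.05, -0.15 and -0.01, and scaling to those near a TSS (within 1 kb) gave -0.99, -1.04, -0.78 and -0.73. Shifted to the enrichment scale, an alternative added once the data had been seen, the medians were -0.22, -0.25, -0.53 and 0.46. The 9 higher regions stayed above 0 under all 4 scalings, of which those to the listed regions and to the enrichment scale move every region up by construction. Scaling to regions near a TSS lowered them, to 0.10 to 0.52, and of the 7 that rose it left 2 called, Adamts2 and the Adam12 flank at 11 weeks. Of the 13 lower regions 7 stayed below 0 under all 4, which were the 3 Adam12 body regions, the Adamts2 body region of 3 weeks, Adamts4 at 8 weeks, the distal Timp3 region of 3 weeks, and Plau at 11 weeks. Scaled to the listed regions, none of these 7 was called by limma, with adjusted p from 0.0591 (Adamts4) to 0.962 (Timp3). The other 6, at Adamts4, Mmp11, Ctsk and the nearer Timp3 region at 3 weeks and at Mmp11 and Timp3 with TNF, turned above 0 under at least 1 scaling.

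**Figure D5:**
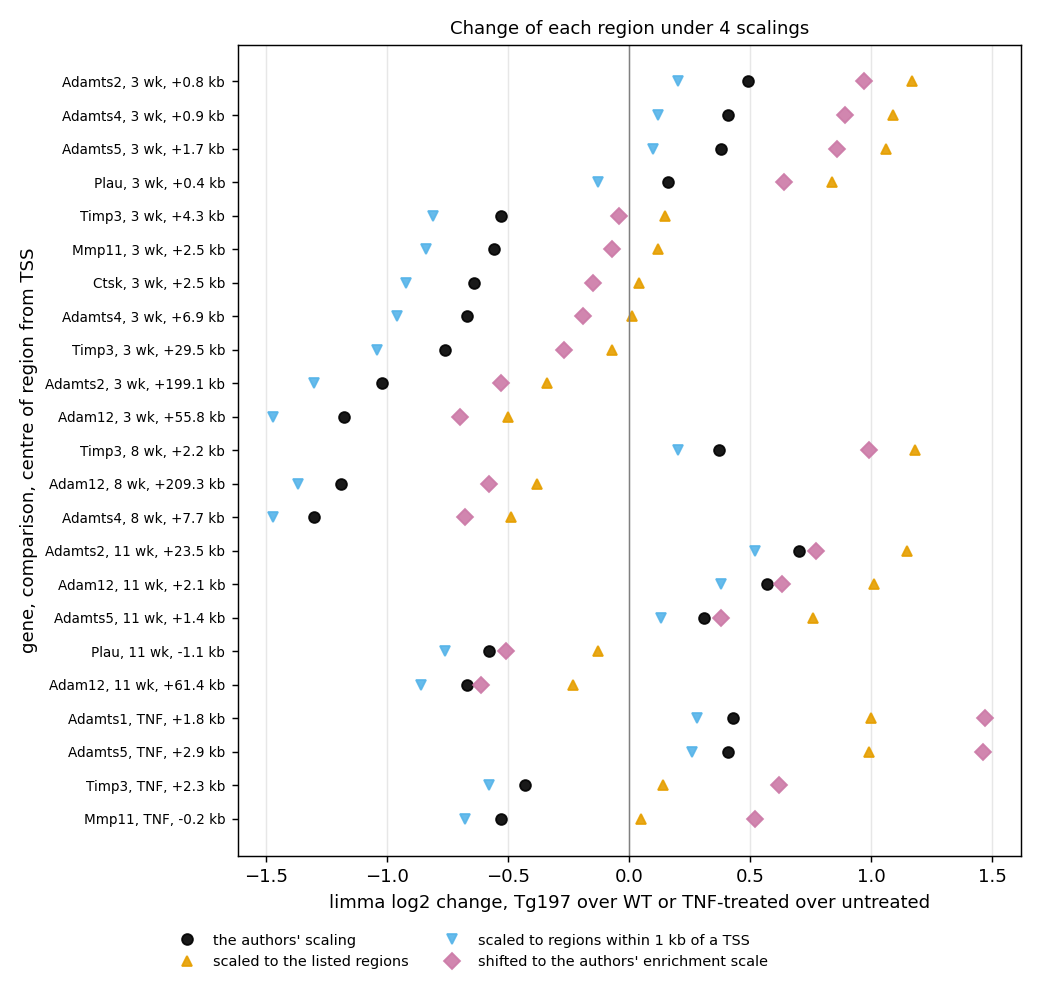
Log2 change of each of the 23 regions (limma) under 4 scalings, with black circles for the authors' scaling, orange triangles for scaling to the listed regions, blue triangles for scaling to listed regions near a TSS (within 1 kb) and pink diamonds for the enrichment scale. The Adamts2 region and the Adam12 promoter flank at 11 weeks lie right of 0 under all 4 scalings, the Adam12 body region lies left of 0 under all 4, and Mmp11 and Timp3 with TNF lie on both sides.

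The wider families were read from lists of 96 protease and inhibitor genes that include the members. Among 24 ADAMTS and ADAMTS-like genes, 4 were higher and 0 lower with TNF, which were Adamts1, Adamts5, Adamts7 and Adamts10, and 3 rose by limma. Adamts7, which is known to cut the cartilage protein COMP, rose by 0.66 ± 0.15 on the log2 scale (307.2 ± 19.2 in TNF-treated and 195.5 ± 26.2 in WT cells, limma adjusted p = 0.0460). All 4 were promoter regions, of which 38.9% were higher in that table, and the list's median log2 change was 0.42 against -0.58 over all regions and -0.41 over promoter regions. At 11 weeks 3 were higher (Adamts2, Adamts5 and Adamts7) and 2 lower (Adamts6 and Adamtsl5), where 29.8% and 67.0% of all regions were. The median was 0.48 against -0.60 over all regions and 0.09 over promoter regions. At promoter regions 2 genes of the list were higher and 2 lower. Adamts7 held 111.0 ± 31.9 in Tg197 and 60.7 ± 10.6 in WT cells in its body. At 3 weeks 2 were higher, 3 lower and 2 in both directions, with a median of -0.41 against -0.70 over all regions and -0.54 over promoter regions. At 8 weeks the 1 listed gene was Adamts4.

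The matrix metalloproteinases themselves were few and mostly lower. Of 23 such genes 4 were listed at 3 weeks, with Mmp17 higher and Mmp11, Mmp24 and Mmp28 lower. Mmp17, a membrane-type enzyme, held 245.6 ± 33.3 normalized reads in Tg197 and 183.3 ± 15.5 in WT cells, and Mmp24, another membrane-type enzyme, fell by 1.25 ± 0.23 on the log2 scale (limma adjusted p = 0.0143). At 8 weeks Mmp23 and Mmp24 were lower, at 11 weeks Mmp24 was and with TNF Mmp11 was. The list's medians were -0.66, -0.97, -0.67 and -0.53, near those of the tables. The collagenase and stromelysin genes that are best known in arthritis, such as Mmp3 and Mmp13, had no listed region, which says nothing about their level of the mark.

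Among the 5 metalloproteinase inhibitors, Reck, Timp2 and Timp3 were lower at 3 weeks and none was higher. All their regions in that table lay outside promoters, where 98.2% of regions were lower. At 8 weeks Timp3 was higher and Timp2 lower, at 11 weeks Timp2 was lower, and with TNF Reck was higher and Timp3 lower. Reck, an inhibitor anchored in the cell membrane, held 68.1 ± 9.6 normalized reads in its body in Tg197 cells at 3 weeks and 140.5 ± 16.4 in WT cells. Its promoter with TNF held 222.7 ± 11.2 in treated and 173.0 ± 71.7 in WT cells, a difference within the spread of the WT libraries. Timp2 held 71.1 ± 8.1 in Tg197 cells at 11 weeks and 118.9 ± 27.2 in WT cells, far inside the gene at 47.7 kb from the TSS.

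For members with promoter regions in several tables, the genes with the nearest log2 changes in the authors' deposited tables were named as a description. Over the 3 tables with Adamts5 these were Spast, Rnf138 and Yap1, among 98 genes, at Euclidean distances of 0.08, 0.11 and 0.15 log2 units. For Timp3 over the Tg197 and TNF tables of 8 weeks, which share their WT libraries, they were Cdk2ap1, Ier5 and Klf16 among 326 genes. For Plau over 3 and 11 weeks the nearest of 408 genes was Ttc19 at 0.07, and for Mmp11 over 3 weeks and TNF 3 of 467 genes were at 0.01.

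The cells were checked against markers as far as the tables allow. Of 12 fibroblast markers 10, 3, 5 and 4 had a listed region in the 4 tables. The 6 with a promoter region at 3 weeks had WT enrichments of 2.27 to 5.67 there. The 4 cartilage, bone, fat and muscle markers with such a region had 2.60 to 5.82, so enrichment did not set the fibroblast markers apart from these. The 2 endothelial markers had 1.42 to 1.69 and the 1 leukocyte marker 1.98. Of the regions of the fibroblast markers 16 of 21, 0 of 3, 4 of 9 and 5 of 6 were lower in the 4 tables. Over all regions 89.5%, 77.2%, 67.0% and 72.3% were lower. At 8 weeks 3 of the 3 were higher and at 11 weeks 5 of the 9, where 20.2% and 29.8% of all regions were. Of 10 leukocyte markers 1, 2, 1 and 0 were listed, each lower, among them Itgam at 3 and 11 weeks, and the summed level of their promoter regions at 3 weeks was 80.0 normalized reads in Tg197 and 122.8 in WT cells. Of 11 cartilage, bone, fat and muscle markers 5, 5, 5 and 3 were listed, with 5, 5, 4 and 3 of them lower and Runx2 in both directions at 11 weeks, and their promoter regions at 3 weeks summed to 899.4 normalized reads in Tg197 and 1344.3 in WT cells. Of 5 endothelial markers 3, 0, 2 and 1 were listed, lower except Flt1 at 3 weeks, which was higher, and Pecam1 at 11 weeks, which had both directions. The part of other cell types in the members' changes was not tested. Since the chromatin came from whole cultures, fewer cells carrying the mark and less of the mark per cell cannot be told apart.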

How the data were processed

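H3K4me3 ChIP-seq tables of 4 comparisons, on the mm9 build per the submitters' processing notes, list the regions with a best window at p of at most 0.0001, so unchanged regions were not seen. The submitters' processing notes name Cuffdiff, Cufflinks, TopHat2, TopHat and BWA without versions or roles. No source used here names the region caller. Each region holds, per the file headers, 3 normalized counts per group made by the authors, and the deposited averages are their signal. The authors' enrichment is a ratio over an input, their changes are log2 of treated over control, and their p-values are deposited for the region and its best window. The deposited distance to the TSS was used as a score for position. Treatment was read as Tg197 or TNF-treated, because the control values of both 8 week tables had equal recovered reads in 162 of 162 cases at 54 identical regions. The tables of 3 and 11 weeks were taken to have the same layout.

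Each table was fitted alone with limma 3.58.1 (R 4.3.3, variance trend) on log2 of the normalized count plus 0.5 over all its regions, with Benjamini-Hochberg adjustment and a threshold of 0.05. Selection of the regions used the same libraries, so these p-values are not independent evidence. Whole reads were recovered within 0.02 normalized reads in 100.0% of values and served for depth and for voom, a count method, as an alternative. The mean chi-square per region between replicates was 1.27 to 33.16, above counting noise in every pair. The test was checked on simulated data without selection of regions and with the same dispersion for all of them. That check does not cover the selection of regions or the spread between libraries found here. The values carry no replicate number, so the letters a, b and c follow the order within a cell. Other alternatives were pseudocounts of 1 and 5, a mean of at least 20, other scalings and leaving out each library.

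The members and lists were chosen with earlier results of these data known. All 9 members were named with every region. From the wider lists, up to 3 genes per direction and table with the largest change were given values, and other genes of those lists and the markers are named only with their counts.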

Additional observations from a re-analysis of the deposited data

Results flagged for a closer look

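The Timp3 promoter flank moved in opposite directions in the tables of 8 weeks. Its log2 change was 0.37 in Tg197 cells and -0.43 in TNF-treated cells, at regions that share 1000 bases and are set against the same 3 WT libraries. In Tg197 cells every library was above every WT library, and in TNF-treated cells every library was below, which is why the pair is given here. Groups did not overlap in 63.2% of all regions of the Tg197 table and 74.2% of the TNF table, so this was common. Limma did not call the change in Tg197 cells (adjusted p = 0.107). The fall with TNF (limma adjusted p = 0.0495) was kept in 1 of 6 fits with a library left out. Scaled to the listed regions, the TNF change was 0.14. The difference between the 2 changes was not tested, because the tables were normalized separately. On the enrichment scale the 2 changes were 0.99 and 0.62, both above 0.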

How the results depend on the processing

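Pseudocounts of 1 and 5, a mean of at least 20 normalized reads and voom on recovered reads kept the direction and the call of all 23 regions. Over all settings other than leaving out a library, single regions kept both in 129 cases, lost the call in 17, gained it in 6 and reversed in 9. With a library left out they kept both in 87 cases, lost the call in 48, gained it in 3 and reversed in 0. Against main counts of 9, 0, 5 and 4 at 3, 8 and 11 weeks and with TNF, scaling to the listed regions called 3 at 3 weeks, 3 at 11 weeks and 2 with TNF, all of which rose, and scaling to listed regions near a TSS (within 1 kb) called 2 at 8 weeks and 2 with TNF, all of which fell, 7 at 3 weeks that all fell, so both rises were lost, and 4 at 11 weeks, of which 2 rose and 2 fell. The enrichment scale, added after seeing the data, called 4 at 3 weeks and 1 at 8 weeks, and 4 with TNF that all rose. Leaving out each library gave 0 to 10 calls at 3 weeks (3 without WT a, 4 without WT b, 0 without WT c), 0 to 2 at 8 weeks (2 without WT c), 4 to 5 at 11 weeks and 0 to 3 with TNF (1 without TNF a, 0 without TNF b, TNF c, WT a or WT b, 3 without WT c). By the authors' adjusted p, promoter regions alone counted 5, 1 and 3 at 3, 8 and 11 weeks against 10, 3 and 5, and a threshold of 0.001 counted 2 at 11 weeks. Log2 changes that reversed with scaling to the listed regions were, at 3 weeks, the Adamts4 body (0.01), Mmp11 (0.12), Ctsk (0.04) and the Timp3 region at 4.3 kb (0.15), and with TNF Mmp11 (0.05) and Timp3 (0.14). Plau at 3 weeks reversed when scaled to regions near a TSS (-0.13), and Mmp11 (0.52) and Timp3 (0.62) with TNF reversed on the enrichment scale. The cause was not tested. No paired analysis was possible because the values carry no replicate number. Depth limits the gene bodies most, where a library held as few as 29 reads in a region.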

Other observations

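Of 17 cathepsin and cystatin genes 2 were higher and 7 lower at 3 weeks, where 9.71% of regions were higher and 89.5% lower. Cst3, which codes for the cathepsin inhibitor cystatin C, rose by 0.61 ± 0.19 on the log2 scale at its promoter (159.1 ± 28.5 normalized reads in Tg197 and 103.1 ± 7.1 in WT cells, limma adjusted p = 0.0147), while Ctsk was among the lower ones. Ctsh, a cathepsin gene, rose by 0.56 ± 0.21 in Tg197 cells at 3 weeks and by 0.49 ± 0.17 with TNF (limma adjusted p = 0.0247 and 0.0461), with 228.6 ± 33.9 in TNF-treated and 161.5 ± 13.7 in WT cells. At 11 weeks Cst6, another cystatin, rose by 0.65 ± 0.17 (limma adjusted p = 0.00452).

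Of 8 procollagen-processing and furin-type genes 4 were lower at 3 weeks and 0 higher, near the shares over that table, and Furin and Pcolce were lower with TNF. Furin, which activates several metalloproteinases including Mmp11, fell by 1.55 ± 0.38 on the log2 scale in its body (60.7 ± 18.4 in TNF-treated and 177.6 ± 46.2 in WT cells, limma adjusted p = 0.0460). Pcolce, an enhancer of procollagen processing, fell by 1.29 ± 0.41 (limma adjusted p = 0.0460). Pcsk6, a relative of Furin, fell by 0.74 ± 0.15 in its body at 11 weeks (limma adjusted p = 0.00434), where 74.2% of regions outside promoters were lower. Plaur, the gene of the urokinase receptor, was lower in its body at 8 weeks, as were 94.1% of regions outside promoters. Limma did not call it (adjusted p = 0.0725). Of 3 HtrA genes Htra3 rose by 0.67 ± 0.18 at 11 weeks (limma adjusted p = 0.00499) and Htra1 fell by 1.24 ± 0.46 with TNF (limma adjusted p = 0.0481). Of 9 membrane ADAM genes 3 were listed at 3 weeks, Adam10, Adam12 and Adam19. All 3 were lower, as were 89.5% of all regions in that table. Adam19 was higher at its promoter at 8 weeks, with 244.4 ± 8.8 in Tg197 and 164.8 ± 37.3 in WT cells. Limma did not call this region (adjusted p = 0.0725), and 44.4% of promoter regions were higher in that table. At 11 weeks Adam19 had both directions.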
